A study of Mus musculus with 5 samples.

Results

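The genes followed here were 10 platelet genes of the 15287 genes in the deposited table: Vwf, Itga2b, Pf4, Ppbp, Gp9, Gp5, Treml1, Rab27b, F2r and Sdpr. They were taken by name for their roles in platelets to see which were already on in bone marrow cells that carry the Fgd5 reporter and which lay mainly in megakaryocyte cells of the wider c-kit+ population. All 10 were found in the table. Sdpr is the older symbol of Cavin2.

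The single-cell transcriptomes came from untreated mice of 20 weeks, and all groups shared the genotype Fgd5CreERT2/+Rosa26Tomato/+, in which ZsGreen and CreERT2 are expressed from 1 Fgd5 allele and Rosa26 holds a Tomato gene that Cre can switch on. Lin-kit+ cells (CD45.2+, lineage negative, c-kit+) filled 3 libraries, called a, b and c here, with 1339, 4095 and 6147 cells. Reporter-positive cells filled 2 libraries, Fgd5+ (793 cells, lineage negative, c-kit+, ZsGreen+) and HSC-Fgd5+ (519 cells, with Sca1+CD150+CD48- added to the gate). The number of mice was not given, so p-values below measure the spread between libraries, which may be technical. The 2 reporter-positive libraries entered the test as replicates of 1 group although their gates differ, so this spread also holds the gate difference. The table names libraries by suffix only. They were matched to populations through the cell numbers in the study, equal by construction, and the title and the source of the 2 reporter-positive samples disagree on which had the HSC gate. The libraries held 2166655 to 36080242 UMIs (unique molecular identifiers, each counting 1 captured transcript), with medians of 3721 to 6567 UMIs per cell. Of all barcodes, 62 occurred in more than 1 library and 0 were shared between the 2 reporter-positive libraries.

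Megakaryocytes arise from hematopoietic stem cells (HSCs) and shed platelets, which carry preformed adhesion receptors and granules into the blood. Von Willebrand factor (Vwf) bridges damaged vessel walls to the GPIb-IX-V complex, of which Gp9 and Gp5 are subunits, while integrin alpha IIb (Itga2b, CD41) pairs with Itgb3 to bind fibrinogen, and alpha granules release chemokines such as Pf4 and Ppbp. Several of these genes are also known from HSCs: Vwf reporters mark stem cells with a platelet bias, and CD41 appears early in blood formation.

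Positions are from GENCODE M21 on GRCm38, the build that mm10 in the submitters' processing notes denotes. Pf4 (chr5:90772435-90773383, plus strand) and Ppbp (chr5:90768518-90770063, plus strand) are neighbours with 2371 bases between them. Vwf lies at chr6:125546774-125686679 (plus strand), Gp9 at chr6:87778072-87779768 (plus strand), Gp5 at chr16:30307685-30310779 (minus strand) and Itga2b at chr11:102453297-102470122 (minus strand). Treml1 lies at chr17:48359916-48367176 (plus strand), F2r at chr13:95601803-95618487 (minus strand) and Sdpr at chr1:51289126-51302960 (plus strand). Sdpr overlaps 9330175M20Rik, an antisense gene on the other strand, and Itga2b holds Gm23563, a small RNA gene, so reads of these pairs may be shared. No other gene overlaps those 9.

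RefSeq windows of 250 bases before the start were matched for 8 of the 10 genes (build GRCm38.p6), and 4 are shown because their genes took different places in the results: a receptor subunit above background in both reporter-positive libraries (Gp9), its partner that was above background in Fgd5+ only (Gp5), the chemokine with the lowest reporter-positive level relative to megakaryocyte-like cells (Pf4) and a cavin with one of the highest (Sdpr). Capitals mark a GATA motif, spelled GATAA on either strand, and a core of ETS motifs, spelled GGAAG on either strand.
Gp9 (chr6:87777820-87778069, plus strand): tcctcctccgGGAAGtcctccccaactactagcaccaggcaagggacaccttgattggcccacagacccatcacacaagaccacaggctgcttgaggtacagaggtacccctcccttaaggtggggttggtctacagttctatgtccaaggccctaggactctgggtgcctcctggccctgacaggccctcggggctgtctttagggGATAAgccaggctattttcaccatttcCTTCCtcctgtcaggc
Gp5 (chr16:30310782-30311031, minus strand): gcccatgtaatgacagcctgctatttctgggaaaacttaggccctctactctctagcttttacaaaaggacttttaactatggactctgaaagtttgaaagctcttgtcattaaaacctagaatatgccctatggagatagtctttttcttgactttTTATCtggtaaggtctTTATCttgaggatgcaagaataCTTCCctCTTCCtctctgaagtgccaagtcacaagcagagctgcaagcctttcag
Pf4 (chr5:90772185-90772434, plus strand): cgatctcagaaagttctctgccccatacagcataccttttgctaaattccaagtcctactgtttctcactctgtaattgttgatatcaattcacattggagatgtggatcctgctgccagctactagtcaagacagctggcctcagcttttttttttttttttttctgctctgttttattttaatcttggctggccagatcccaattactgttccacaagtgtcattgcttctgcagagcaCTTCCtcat
Sdpr (chr1:51288876-51289125, plus strand): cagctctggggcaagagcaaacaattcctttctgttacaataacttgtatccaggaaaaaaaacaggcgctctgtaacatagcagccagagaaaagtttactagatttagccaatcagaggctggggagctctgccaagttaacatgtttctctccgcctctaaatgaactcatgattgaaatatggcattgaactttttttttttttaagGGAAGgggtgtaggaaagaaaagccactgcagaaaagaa
The GATA letters occurred in 2 of the 8 windows, those of Gp9 (1 match) and Gp5 (2 matches), against 22.6% of all 32851 windows of this length. The ETS letters occurred in 7 of the 8, all but F2r, against 64.1% of all windows. These matches are letters in a window and no measure of binding.

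Megakaryocyte cells of the Lin-kit+ libraries were found by clustering with the 10 genes left out, and named from markers that also left them out. One cluster carried 10 of the 16 measured megakaryocyte markers (among them Plek, Lat, Rap1b and Slc14a1) and held 73, 235 and 335 cells of libraries a, b and c, 5.55% ± 0.166 of cells (SD, n = 3 libraries) and 4.09% ± 0.253 of UMIs. They are called megakaryocyte-like below. It held 2 Fgd5+ and 2 HSC-Fgd5+ cells. Reporter-positive cells lay mainly in an HSC-like cluster (721 Fgd5+ and 480 HSC-Fgd5+ cells, led by Meg3, Ltb and Clec1a, with 9 of 10 HSC markers) and a smaller one led by Ptn and histone genes (61 and 32 cells). Because megakaryocyte-like cells were chosen by their expression, comparisons with them are descriptions and carry no test. Neutrophil-like Lin-kit+ cells (2852 cells) served as the background level. They belong to the Lin-kit+ libraries, so RNA outside cells in the reporter-positive libraries was not measured. Levels are CPM, the UMIs of a gene scaled to a fixed total of UMIs for each library or cell group, with exact 95% Poisson intervals that cover counting error only. UMIs were counted at transcript ends and were not scaled per length, so levels are compared between cells and not between genes.

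**Figure D1:**
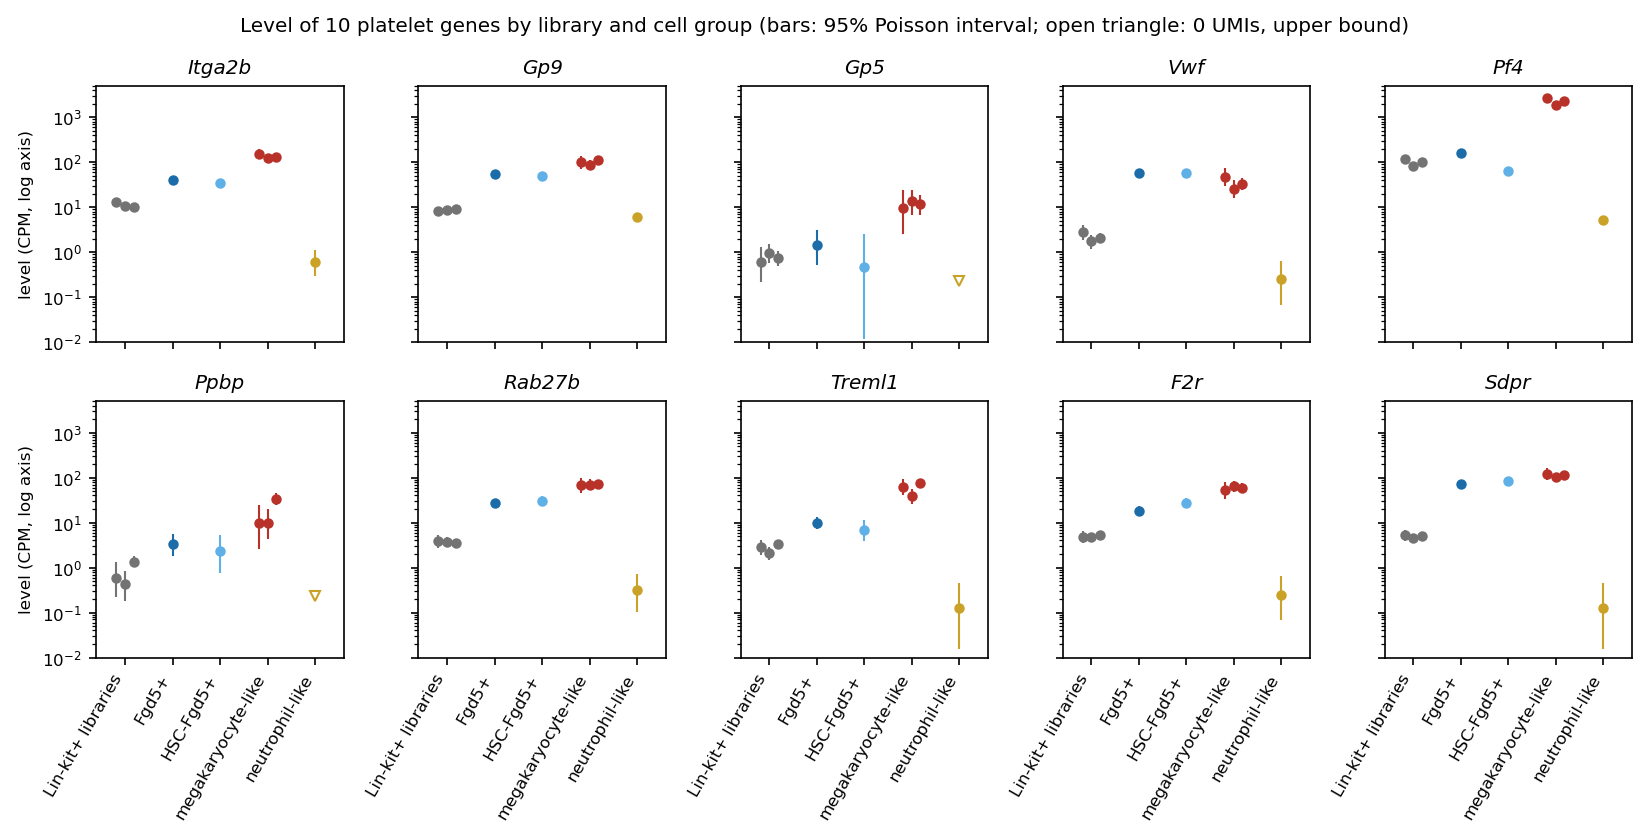
Level of each gene in CPM (log axis) in the 3 Lin-kit+ libraries, the 2 reporter-positive libraries, the megakaryocyte-like cells of each Lin-kit+ library and the pooled neutrophil-like cells, with 95% Poisson intervals and open triangles for the upper bound at 0 UMIs. Reporter-positive points of Vwf lie above the megakaryocyte-like ones, and those of the other 9 genes lie below them in this clustering.

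Of the 10 genes, 9 were above background in both reporter-positive libraries, by the rule that the lower Poisson bound exceeded the upper bound in neutrophil-like cells (48.6% of all 15287 genes were). Gp5 was the exception through HSC-Fgd5+, where it had 1 UMI. In Fgd5+ its lower bound of 0.528 CPM was above the neutrophil-like upper bound of 0.230 CPM, so that without HSC-Fgd5+ all 10 passed. Relative to megakaryocyte-like cells the reporter-positive level ran from 4.80% (Pf4) to 162% (Vwf), with a median of 33.0% over the 10 genes. Both reporter-positive libraries were above the megakaryocyte-like cells of all 3 libraries for Vwf (40.4% of genes tested were) and below them for the other 9 (16.1% of genes tested were). These positions depended on the clustering: at resolution 0.5, with the 10 genes kept for clustering, and when clustered again without doublets, the members below the megakaryocyte-like cells of all libraries numbered 5, 7 and 5. In these 3 clusterings the megakaryocyte-like cluster was led by Ptn, as was the smaller HSC-like cluster above. It held 63, 64 and 57 Fgd5+ cells and 33 HSC-Fgd5+ cells each time. Only its Lin-kit+ cells gave the megakaryocyte-like levels. Sdpr was then above the megakaryocyte-like mean (170%, 132% and 141%) and Vwf stood at 320%, 236% and 248%. Gp9 was at 103.6%, 85.3% and 95.9%, F2r at 96.1%, 77.4% and 83.8%, and Rab27b at 92.9%, 73.9% and 78.5%. Itga2b (46.9%, 39.4% and 42.4%), Ppbp (36.2%, 28.2% and 32.0%), Treml1 (34.5%, 26.2% and 29.1%), Gp5 (17.0%, 13.4% and 14.7%) and Pf4 (8.85%, 6.46% and 7.05%) stayed below it.

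In the comparison of the libraries as a whole, 7 of the 9 genes tested were higher in reporter-positive than in Lin-kit+ libraries (quasi-likelihood test of edgeR, p adjusted by Benjamini-Hochberg, threshold 0.05). Across all 11991 genes tested 63.1% passed, 32.7% higher and 30.4% lower, 3921 and 3647 genes. The median log2 fold change was 1.60 over the 9 and 0.07 over all genes. With library totals in place of TMM scaling the median of all genes was 0.60 and the calls split into 6579 higher and 1995 lower, so fitted changes are read against that shift. CPM values are on library totals too. The share of all genes whose CPM values did not overlap between these groups was not counted. Statements below that reporter-positive values lay above Lin-kit+ values are therefore descriptions.

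Of the adhesion receptors, Itga2b was at 13.1, 10.6 and 10.4 CPM in Lin-kit+ libraries a, b and c and at 40.5 (34.7 to 47.1) in Fgd5+ and 34.6 (27.2 to 43.4) in HSC-Fgd5+. Both reporter-positive libraries lay above all 3 Lin-kit+ libraries, and the fitted log2 change was 1.21 (SE 0.15, adjusted p = 0.000417 by edgeR). Megakaryocyte-like cells held more, 155, 124 and 133 CPM, so that reporter-positive cells reached 27.4% of their mean. Itga2b was not particular to either population: mast or basophil-like cells were at 106, 99.7 and 81.3 CPM in the 3 libraries and held 24.0% ± 1.52 of its Lin-kit+ UMIs, next to 49.3% ± 0.833 in megakaryocyte-like cells. Its partner Itgb3 was at 11.3 and 10.6 CPM in the reporter-positive libraries and at 12.7 CPM in the pooled megakaryocyte-like cells.

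Gp9, the small subunit that the GPIb complex needs to reach the surface, was at 8.20, 8.89 and 9.06 CPM in the Lin-kit+ libraries and at 56.1 (49.2 to 63.8) and 50.3 (41.3 to 60.7) in Fgd5+ and HSC-Fgd5+. All reporter-positive values lay above all Lin-kit+ values (log2 change 2.07, SE 0.11, adjusted p = 1.08e-05 by edgeR). Megakaryocyte-like cells were at 100.3, 87.6 and 111 CPM, and the reporter-positive mean was 53.4% of theirs, and 103.6%, 85.3% and 95.9% in the 3 clusterings named above. Gp9 had the highest background of the adhesion receptors, 6.24 CPM (5.08 to 7.59) in neutrophil-like cells, which held 16.3% ± 4.85 of its Lin-kit+ UMIs.

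Gp5, the subunit of the same complex that thrombin cleaves, gave 6 UMIs in Fgd5+ and 1 in HSC-Fgd5+, 1.44 CPM (0.528 to 3.13) and 0.462 CPM (0.0117 to 2.57). The Lin-kit+ libraries were at 0.600, 0.963 and 0.748 CPM, within those intervals, and Gp5 did not pass the filter on low counts, so it was not tested. Megakaryocyte-like cells were at 9.55, 13.8 and 11.7 CPM and held 62.3% ± 3.85 of its Lin-kit+ UMIs, and erythroid-like cells held 29.0% ± 10.9. The other subunits, Gp1ba and Gp1bb, were as sparse in reporter-positive cells, at 1.44 and 0.462 CPM and at 1.2 and 0.923 CPM, beside 5.02 CPM each in megakaryocyte-like cells. With 1 to 6 UMIs per subunit and library, a lack of Gp5, Gp1ba or Gp1bb in reporter-positive cells cannot be read from these counts.

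Among granule proteins, Vwf was at 2.80, 1.77 and 2.13 CPM in the Lin-kit+ libraries and at 57.6 (50.5 to 65.3) in Fgd5+ and 58.6 (48.9 to 69.7) in HSC-Fgd5+. The groups did not overlap, and the log2 change of 4.21 (SE 0.17, adjusted p = 4.09e-06 by edgeR's quasi-likelihood test) was the largest fitted among the 10. The megakaryocyte-like cells stood at 47.8, 26.3 and 33.5 CPM. In this clustering Vwf was the only one of the 10 with a reporter-positive mean above theirs, 1.62 times (1.21 to 2.23 over pairs of libraries). Megakaryocyte-like cells held 64.9% ± 5.95 of its Lin-kit+ UMIs. Monocyte or dendritic-like cells held 18.04% ± 5.41, a share not scaled to the number of those cells. Outside megakaryocyte-like cells the mean level of Vwf was 0.800 CPM. Vwf is also made by endothelium: the endothelial markers Cdh5, Flt1 and Plvap were at 0 to 0.462 CPM in both reporter-positive libraries, whereas Kdr (7.20 and 7.38), Emcn (35.99 and 33.7), Tie1 (43.9 and 44.8) and Eng (126 and 114) were measured there. Summed over the 7 of 8 endothelial markers in the table, the level was 214 and 201 CPM in the reporter-positive and 17.8 to 20.5 CPM in the Lin-kit+ libraries. Their part in the Vwf result was not tested.

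Pf4, the platelet chemokine that binds heparin, took the opposite place. Megakaryocyte-like cells were at 2751, 1886 and 2358 CPM and held 93.6% ± 6.13 of its Lin-kit+ UMIs (44.6%, 44.5% and 45.3% in the 3 clusterings named above). The whole Lin-kit+ libraries were at 118, 83.6 and 103 CPM, with Fgd5+ above all of them at 159 CPM (147 to 172) and HSC-Fgd5+ below all of them at 64.6 CPM (54.4 to 76.2). The change did not pass the test (log2 change -0.36, SE 0.34, adjusted p = 0.382 by edgeR), and its sign turned to 0.17 with library totals. Without the Fgd5+ library, which left 1 reporter-positive library, the log2 change was -1.21. Pf4 outside megakaryocyte-like cells was at 2.71 and 3.08 CPM in libraries a and b and at 14.4 CPM in c, where 288 of those 501 UMIs lay in cells called as doublets and the level without them was 6.31 CPM.

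Ppbp, the gene next to Pf4 and the source of platelet basic protein, was sparse throughout. It gave 6, 8 and 49 UMIs in the Lin-kit+ libraries (0.600, 0.428 and 1.36 CPM) and 14 and 5 UMIs in Fgd5+ and HSC-Fgd5+ (3.36 and 2.31 CPM). The log2 change of 1.16 (SE 0.61) had an adjusted p of 0.134 by edgeR, and 0.0430 with library totals. Library c held 46 of the 58 megakaryocyte-like UMIs, and without that library the log2 change was 2.04 with an adjusted p of 0.0059 by edgeR. Neutrophil-like, erythroid-like, mast or basophil-like and monocyte or dendritic-like cells held 0 UMIs of Ppbp.

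Rab27b, a small GTPase that docks platelet granules for release, was at 3.8, 3.75 and 3.55 CPM in the Lin-kit+ libraries and at 27.6 (22.8 to 33.1) and 30.5 (23.6 to 38.8) in Fgd5+ and HSC-Fgd5+. Reporter-positive values lay well above the Lin-kit+ ones (log2 change 2.43, SE 0.14, adjusted p = 1.12e-05 by edgeR). Megakaryocyte-like cells were at 69.3, 70.1 and 71.5 CPM, held 77.6% ± 2.06 of its Lin-kit+ UMIs (28.4% to 29.2% in the 3 clusterings named above) and left the reporter-positive mean at 41.3% of theirs (73.9% to 92.9%).

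Of the receptors, Treml1, an alpha granule membrane protein shown on activated platelets, was at 2.90, 2.09 and 3.33 CPM in the Lin-kit+ libraries and at 9.84 (7.06 to 13.3) and 6.92 (3.87 to 11.4) in Fgd5+ and HSC-Fgd5+. Its log2 change was 1.09 (SE 0.29, adjusted p = 0.014 by edgeR). Without the Fgd5+ library, which left 1 reporter-positive library, it was 0.74. Megakaryocyte-like cells, at 62.1, 38.8 and 74.4 CPM, held 84.7% ± 5.09 of its Lin-kit+ UMIs (29.9% to 30.0% in the 3 clusterings named above), and reporter-positive cells were at 14.3% of their mean.

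F2r, the thrombin receptor PAR1, which mouse platelets do not rely on for thrombin responses, was at 4.80, 4.87 and 5.29 CPM in the Lin-kit+ libraries and at 18.2 (14.4 to 22.8) and 27.2 (20.7 to 35.1) in Fgd5+ and HSC-Fgd5+. All reporter-positive values were above all Lin-kit+ values (log2 change 1.60, SE 0.19, adjusted p = 0.000324 by edgeR). In megakaryocyte-like cells it was at 52.5, 63.8 and 59.8 CPM. Erythroid-like cells, at 37.3, 29.9 and 29.3 CPM, held 38.4% ± 2.89 of the Lin-kit+ UMIs of F2r, beside 48.3% ± 6.89 in megakaryocyte-like cells, and their values lay above both reporter-positive libraries. F2rl3, the PAR4 receptor that mouse platelets do use, was at 31.4 and 26.8 CPM in reporter-positive libraries and at 23.6 CPM in megakaryocyte-like cells.

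Sdpr, a cavin that shapes caveolae, was at 5.30, 4.55 and 5.07 CPM in the Lin-kit+ libraries and at 73.4 (65.4 to 82.1) and 83.1 (71.4 to 96.1) in Fgd5+ and HSC-Fgd5+. The groups were far apart (log2 change 3.44, SE 0.12, adjusted p = 2.32e-06 by edgeR). Megakaryocyte-like cells were at 122, 101.4 and 112 CPM and held 91.7% ± 7.03 of its Lin-kit+ UMIs, and 0.209, 0.224 and 0.864 CPM lay outside them. In the 3 clusterings named above they held 32.2%, 32.2% and 32.8%. Reporter-positive cells reached 70.1% of the megakaryocyte-like mean here, and were above it in those 3.

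**Figure D2:**
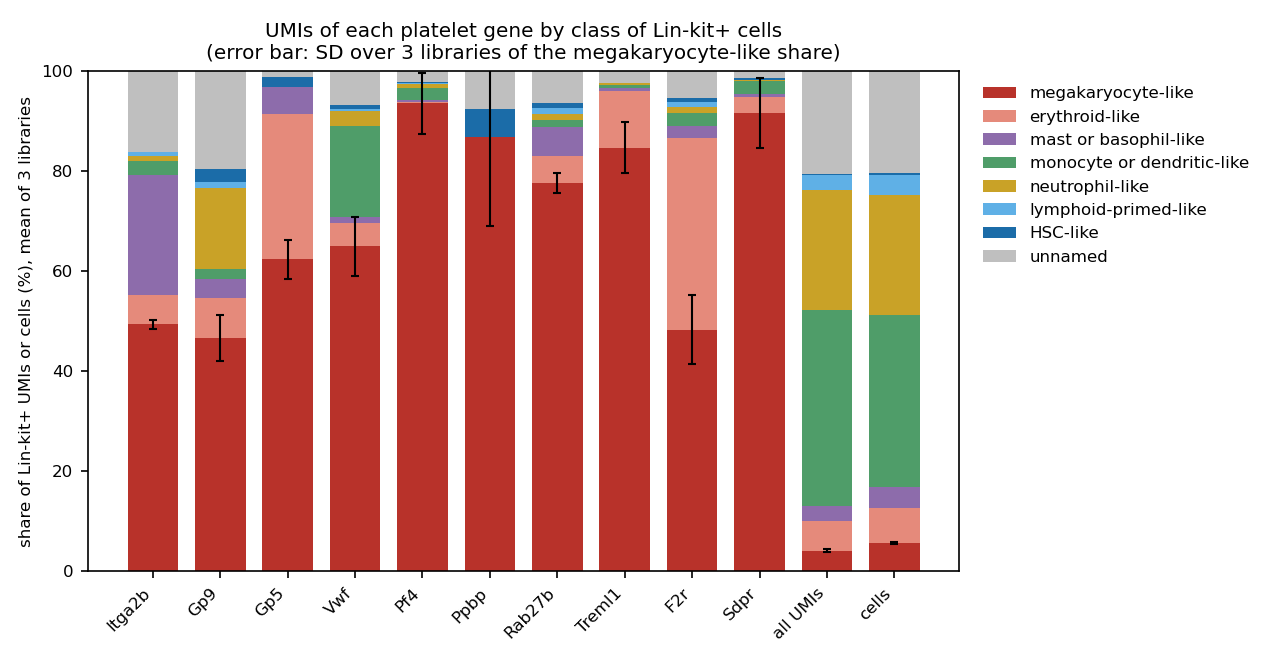
Mean share (%) over the 3 Lin-kit+ libraries of each gene's UMIs that lay in each class of cells, with all UMIs and all cells at the right and the SD over libraries on the megakaryocyte-like share. In the clustering shown Pf4, Sdpr and Ppbp lay mostly in megakaryocyte-like cells, which held 44.6%, 32.2% and 37.3% of them at resolution 0.5, whereas mast or basophil-like cells held 24.0% of Itga2b and erythroid-like cells 38.4% of F2r.

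The weight of these few megakaryocyte-like cells in the Lin-kit+ libraries was visible when they were taken out of the Lin-kit+ sums. The fitted log2 changes then were 3.40 for Pf4, 4.52 for Ppbp, 3.67 for Treml1, 6.57 for Sdpr, 4.52 for Rab27b and 5.596 for Vwf. Itga2b (2.13), Gp9 (2.89) and F2r (2.46) moved less. These values describe the sums, since the cells were chosen by expression. With megakaryocyte-like cells taken out of all 5 libraries, an alternative added after the data were seen, they were 3.34 for Pf4, 4.10 for Ppbp and 5.59 for Vwf.

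**Figure D3:**
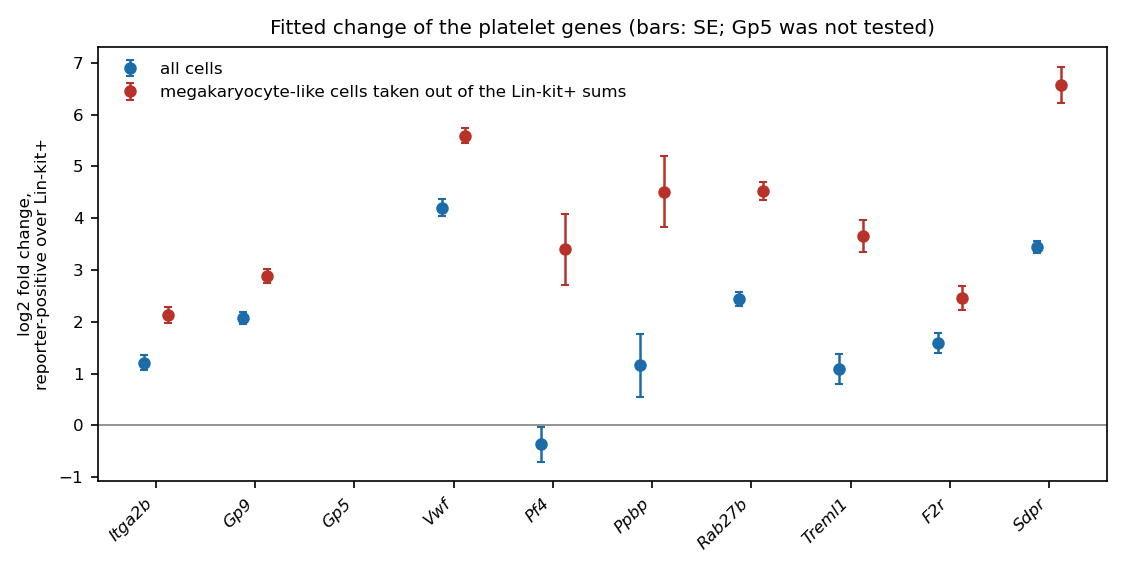
Fitted log2 fold change of reporter-positive over Lin-kit+ libraries with its SE (edgeR), for all cells and with megakaryocyte-like cells taken out of the Lin-kit+ sums. Pf4 lies at -0.36 with all cells and at 3.40 without those cells, while Gp9 goes from 2.07 to 2.89.

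Megakaryocyte-like cells were not uniform. A finer clustering (resolution 2) named 2 megakaryocyte-like clusters, of 332 Lin-kit+ cells (308 of them megakaryocyte-like before) and 290 cells (all of them so before), with medians of 4481 and 2916 UMIs, and all 10 genes were at a higher CPM in the second. Pf4 was at 1455 CPM in the first and 3644 in the second, Gp9 at 67.7 and 159, Sdpr at 63.0 and 181 and Vwf at 22.0 (15.5 to 30.3) and 54.4 (40.5 to 71.5). The reporter-positive levels of Vwf lay above the first cluster and within the interval of the second. The levels of Sdpr (73.4 and 83.1 CPM) were between those of the 2 clusters, with Fgd5+ within the first's interval (51.6 to 76.2). Those of Pf4, Itga2b, Treml1, Ppbp, Gp5, Rab27b, F2r and Gp9 lay below both. For Gp9 in Fgd5+ and F2r in HSC-Fgd5+ they were within the interval of the first cluster (55.9 to 81.4 and 24.6 to 42.5). With a coarser clustering (resolution 0.5), with the 10 genes kept among the clustering genes, or clustered again without doublets, 100%, 98.3% and 96.9% of the second cluster's cells joined cells named erythroid-like, and the reporter-positive level as a percent of the remaining megakaryocyte-like cells then had a median of 69.9%, 56.7% and 60.4% over the 10 genes. The share of Lin-kit+ UMIs in megakaryocyte-like cells was then 29.2%, 29.2% and 30.5% for Vwf, 24.9%, 22.8% and 22.8% for Itga2b, 20.6%, 19.05% and 18.3% for Gp9, 16.1%, 15.6% and 15.5% for F2r and 24.7% in each for Gp5.

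To compare detection in single cells, 1000 UMIs were drawn from each cell, and 8 HSC-Fgd5+ cells below that depth and 1 megakaryocyte-like cell dropped out. Vwf was found in 6.31% of Fgd5+ cells (95% Wilson interval 4.82 to 8.22) and 6.65% of HSC-Fgd5+ cells (4.80 to 9.15), against 3.12% of megakaryocyte-like cells (2.03 to 4.76) and 0.105% of neutrophil-like cells. The unthinned shares were 19.9%, 19.1%, 9.80% and 0.140%, at median depths of 4346, 3721, 3655 and 5200.5 UMIs. In Fgd5+ and HSC-Fgd5+ cells, thinned shares were 5.30% and 6.65% for Sdpr and 5.67% and 6.07% for Gp9. Pooled megakaryocyte-like cells had higher shares, 10.9% and 9.19%. For Gp9 the intervals of both libraries (4.27 to 7.51 and 4.31 to 8.48) overlapped the megakaryocyte-like one (7.19 to 11.7). For Sdpr the HSC-Fgd5+ interval (4.80 to 9.15) overlapped it (8.72 to 13.6). Gp9 was found in 4.11% of megakaryocyte-like cells of library a and in 0.596% of neutrophil-like cells. Pf4 was found in 4.67% and 3.13% of reporter-positive and 30.5% of megakaryocyte-like cells. Treml1 was found in 0.504% and 0.587% against 5.76%, and Gp5 in 1 of 793 Fgd5+ cells and 0 of 511 HSC-Fgd5+ cells. That count of 0 allows up to 0.587% of cells with a UMI at this depth (3 cells, counting error only), and sets no limit on cells that express Gp5.

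**Figure D4:**
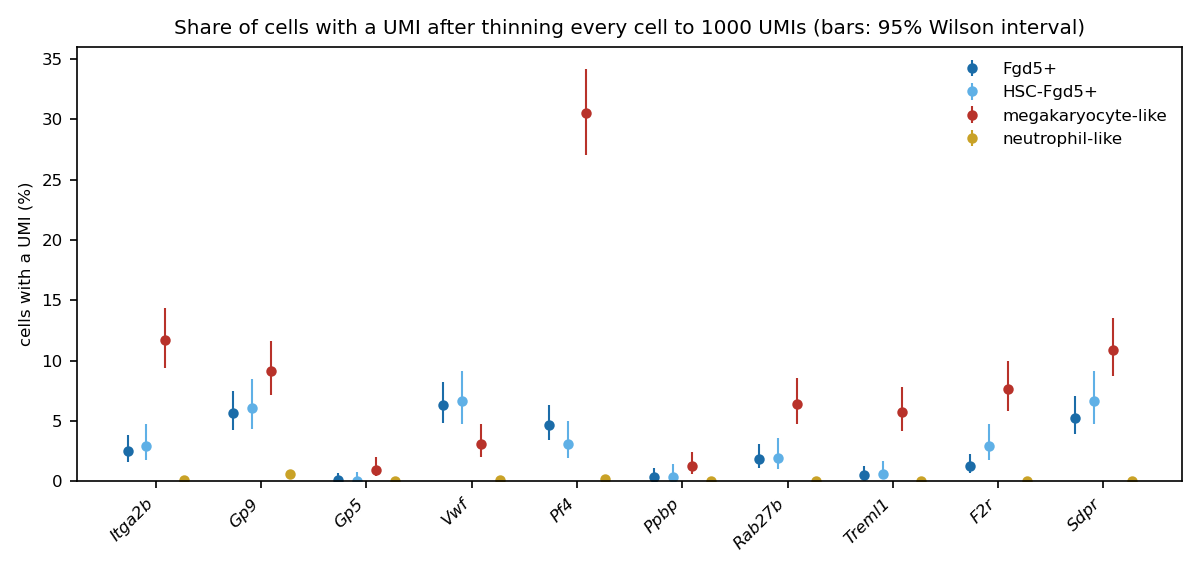
Share of cells (%) with at least 1 UMI of each gene after thinning to 1000 UMIs, with 95% Wilson intervals, for Fgd5+, HSC-Fgd5+, megakaryocyte-like and neutrophil-like cells. The 2 reporter-positive libraries lie above megakaryocyte-like cells for Vwf and below them for Pf4.

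Counted together at that depth, a reporter-positive cell had a mean of 0.286 (Fgd5+) and 0.313 (HSC-Fgd5+) of the 10 genes, against 0.863, 0.778 and 0.943 in megakaryocyte-like cells of libraries a, b and c, 0.127 in erythroid-like and 0.0105 in neutrophil-like cells. Of Fgd5+ and HSC-Fgd5+ cells, 23.8% and 27.0% had at least 1 of the 10, beside 48.4% of megakaryocyte-like cells. At least 3 were seen in 7 Fgd5+ and 2 HSC-Fgd5+ cells (0.883% and 0.391%), and in 10.1% of megakaryocyte-like cells. With all UMIs, 62.2% of Fgd5+ cells, 58.6% of HSC-Fgd5+ cells and 4.42% of neutrophil-like cells had at least 1.

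Fgd5+ cells with a Vwf UMI (158 of 793) had more of several other members than cells without one. Sdpr was at 140 CPM in them (119 to 163) and 47.4 CPM (39.9 to 55.8) in the others, and Itga2b at 76.8 CPM (61.8 to 94.4) and 26.4 CPM (20.9 to 32.9). In HSC-Fgd5+ cells the values were 133 and 65.5 CPM for Sdpr and 65.8 and 23.7 CPM for Itga2b. The cells with a Vwf UMI were deeper, with medians of 6605.5 and 4961 against 4077 and 3579.5 UMIs. At equal depth 50 and 34 cells had a Vwf UMI, and 3 in each library also had one of Itga2b, so no order is read there for Itga2b or Sdpr.

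The UMIs of Pf4 were gathered in few reporter-positive cells, and in a part of the megakaryocyte-like cells as well. Of 643 megakaryocyte-like cells, 120 with at least 10 UMIs held 93.2% of the Pf4 UMIs. The megakaryocyte-like level without those 120 cells was 194 CPM. In Fgd5+, 124 cells held 664 UMIs, of which the top 2 cells held 158 and 103 (39.3% together), and 10 cells with at least 10 UMIs held 71.4%. In HSC-Fgd5+, 3 such cells held 42.9% of 140 UMIs. Without them the level was 46.9 CPM in Fgd5+ and 37.3 CPM in HSC-Fgd5+, both still above the 5.12 CPM (4.07 to 6.35) of neutrophil-like cells. For comparison, the top 2 Fgd5+ cells held 5% of the Vwf, 5.13% of the Gp9 and 4.25% of the Sdpr UMIs.

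The 13 reporter-positive cells with at least 10 Pf4 UMIs were higher in several other members, in counts not brought to equal depth. Against the other 1299 reporter-positive cells, Vwf was at 227.2 CPM (155 to 321) and 54.1, Itga2b at 249 (173 to 346) and 33.7, and Sdpr at 213 (144 to 304) and 73.6. Treml1 was at 92.3 CPM (49.2 to 158) and 6.94, and Rab27b at 128 (75.8 to 202) and 26.3. The intervals of F2r overlapped, at 49.7 CPM (20.0 to 102) and 20.7 (17.2 to 24.6). Of them, 12 lay in HSC-like clusters, 1 was megakaryocyte-like and 0 were called as doublets, while their median depth was 10970 UMIs against 4156. Gp5 had 0 UMIs in them, with an upper Poisson bound of 26.2 CPM. Of the fixed platelet markers outside the 10 genes, Nrgn was at 333 and 228 CPM, Clec1b at 6.48 and 4.15 and Gp1ba at 1.44 and 0.462 in the 2 reporter-positive libraries. The part of attached platelets in the Pf4 result was not tested.

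**Figure D5:**
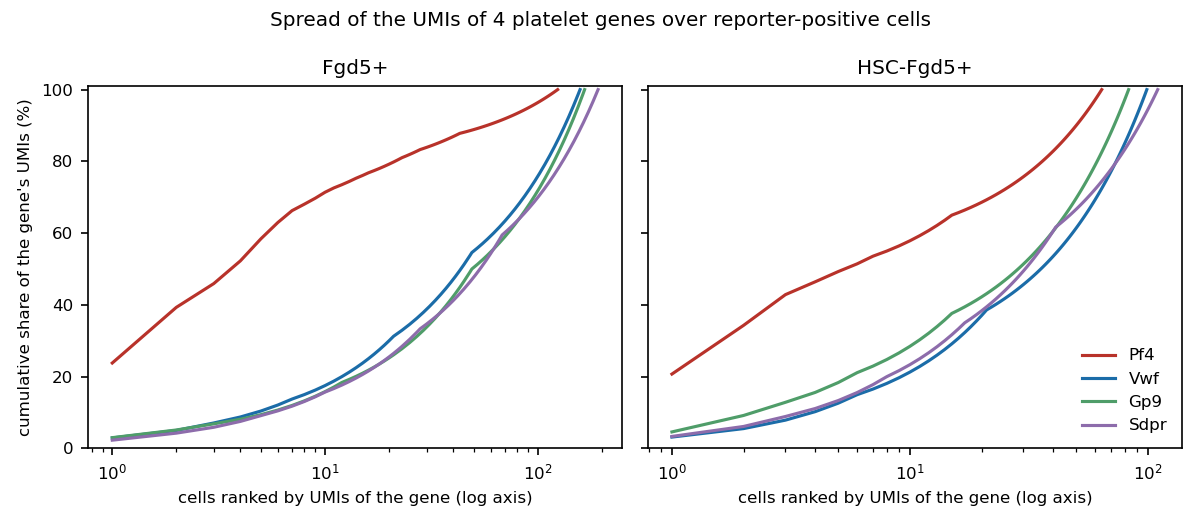
Cumulative share (%) of the UMIs of Pf4, Vwf, Gp9 and Sdpr over cells ranked by their UMIs of that gene (log axis), in Fgd5+ and HSC-Fgd5+. The top 2 Fgd5+ cells hold 39.3% of Pf4 UMIs and 5% of Vwf UMIs.

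Between the 2 reporter-positive libraries, which have no replicate of their own, the ratio of Fgd5+ to HSC-Fgd5+ was 2.47 for Pf4 (counting interval 2.05 to 2.98) and 0.670 for F2r (0.470 to 0.957). For the other 8 genes the interval held 1 (11.4% of genes tested had an interval without it). The ratio was 0.982 (0.789 to 1.23) for Vwf, 1.12 (0.885 to 1.41) for Gp9 and 0.884 (0.733 to 1.07) for Sdpr. All cells entered these ratios. Their intervals cover counting error only and not the spread between cells, and 10 Fgd5+ cells held 71.4% of the Pf4 UMIs there. The cell filter (at least 1000 UMIs and a mitochondrial share below 10%) would keep 790 of 793 Fgd5+ and 405 of 519 HSC-Fgd5+ cells. With the cells of at least 10 Pf4 UMIs left out, the Pf4 levels above stand at 46.9 and 37.3 CPM. Within the smaller HSC-like cluster led by Ptn, Vwf was at 57.6 and 50.1 CPM in Fgd5+ and HSC-Fgd5+, beside 58.1 and 61.2 CPM in the main one.

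Other platelet genes, from 9 lists without the 10 members, were read in the same fit. Of 87 genes 81 were in the table and 73 were tested, and 42 rose, 15 fell and 16 did not pass, with a median log2 change of 0.81 beside 0.07 over all genes. These counts and those by list stand beside 32.7% higher and 30.4% lower over all genes tested, and nothing particular to a list is read from them. Adhesion receptors had 5 higher and 0 lower of 7, with Jam3 (log2 change 5.95), Esam (4.97), Itgb3 (1.98) and Clec1b (1.80). Agonist receptors had 5 higher and 0 lower of 7, with the prostaglandin E receptor Ptger3 at 31.9 and 36.5 CPM in reporter-positive and 9.27 CPM in megakaryocyte-like cells (log2 change 3.68), Tbxa2r (2.90) and F2rl3 (2.21). Adjusted p-values of these 7 genes by edgeR's quasi-likelihood test ran from 7.13e-07 to 0.0175.

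Alpha granule cargo moved both ways, 6 higher and 4 lower of 11. Mmrn1, which stores factor V, was at 119 and 138 CPM in reporter-positive and 24.3 CPM in megakaryocyte-like cells (log2 change 5.96, adjusted p = 3.77e-06 by edgeR), and Clu rose by 2.85. Serpine2 fell by 2.98 on the log2 scale. F13a1 fell by 6.16 on that scale. F13a1 is also one of the fixed monocyte markers and was at 1.55 CPM in megakaryocyte-like cells. Granule biogenesis and secretion had 4 higher and 3 lower of 12, with Slc18a2 (2.91), Unc13d (1.55), Stx11 (-2.46) and Rab27a (-1.35), the paralog of Rab27b that moved the other way.

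The caveolar list had 3 higher of 3, the cavins Prkcdbp (6.97) and Ptrf (4.55) and Cav2 (2.61). Prkcdbp, the symbol used for Cavin3, was at 87.6 and 76.6 CPM in reporter-positive and at 4.25 CPM in megakaryocyte-like cells, unlike Sdpr, at 73.4 and 83.1 CPM and 112 CPM. Signalling genes had 8 higher and 2 lower of 13, with Tbxas1 (3.12), Lat (1.35), Pla2g4a (1.22) and Rasgrp2 (-1.59). Cytoskeletal genes had 1 higher and 4 lower of 7, with Tpm4 (-2.70), Flna (-1.28), Vcl (-0.88) and Myh9 (-0.67). Of the ITIM and TREM-like receptors 1 was tested, Ceacam1, which fell by 3.76. Transcription factors had 10 higher and 1 lower of 12, with Zfpm1 (3.81), Meis1 (3.27) and Gata2 (2.08). The one that fell, Gata1 (-1.84), was at 6.24 and 6.0 CPM in reporter-positive and 100.8 CPM in megakaryocyte-like cells, and was named here after its values were seen.

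Over 20 groups of cells (the 2 reporter-positive libraries and 18 Lin-kit+ clusters) and 9479 genes, with the 10 members ranked apart, the profiles of log2(CPM + 1) most like that of Vwf were those of H1f0 (r = 0.93), Gm10419 (0.92), Rab11a (0.90), Tbxas1 (0.89) and Diaph1 (0.89). Of the other members, Sdpr (0.898, above Rab11a at 0.896) and Rab27b (0.83) were closest to Vwf. For Pf4 the genes outside the 10 were Ehd3 (0.83), Tmem80 (0.80), Mea1 (0.79), Gstm7 (0.79) and Gng11 (0.78), and the members Rab27b (0.85, above all of these) and Sdpr (0.79) were closest. These are descriptions over clusters that share libraries and depth, and carry no test.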

How the data were processed

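Libraries were made with the Chromium Single Cell 3' kit (version 2). Reads of 2 sequencing runs were combined, and the table the authors deposited holds raw UMI counts from Cell Ranger, without normalization. The submitters' processing notes name Cell Ranger 1.3 and 2.1, Seurat 2.3.4 and mm10. The 10 genes and all lists were chosen with earlier results of these data known.

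Cells were scaled to the median total, log-transformed and clustered on 2000 variable genes without the 10 members (20 components, 15 neighbours, Leiden resolution 1; scanpy 1.11.5, leidenalg 0.10.2, Python 3.11.15). A class needed at least 3 markers with a fold of at least 2 in 5% of cells. In addition, no other class could have more markers among the cluster's leading genes. Clusters left unnamed included one of 1097 cells with 5 of 11 neutrophil markers and one of 756 cells with 5 of 10 HSC markers. Scrublet called 165 doublets (1.28%), which were kept. Sums per library entered edgeR 4.0.16 in R 4.3.3 (TMM, filterByExpr, quasi-likelihood test), which was also run on simulated data. Few genes were changed in that simulation, whereas 63.1% were called here, so it does not cover this setting. DESeq2 1.42.0 was an alternative. All 10 members were named, with up to 4 genes per list, those of largest absolute change past the threshold with at least 50 UMIs, and the 5 genes most like Vwf and Pf4. Of the genes this rule names, 2 are not reported here. Depth sets the precision: at 2166655 UMIs, 1 UMI in HSC-Fgd5+ is 0.462 CPM.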

Additional observations from a re-analysis of the deposited data

How the results depend on the processing

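Under 13 alternatives of the test the count of members called higher stayed within 1.5 times that of the main comparison, as did the count of all genes called. Pf4 changed sign with library totals (0.17), equal cell numbers (0.20), without the HSC-Fgd5+ library (0.11; -1.21 without Fgd5+), and without megakaryocyte-like cells in Lin-kit+ (3.40) or in any library (3.34, chosen after seeing the data, as was clustering again). For Treml1 the log2 change was 0.74 without Fgd5+, which left 1 reporter-positive library. The median share of Lin-kit+ UMIs in megakaryocyte-like cells was 71.3%, and 29.2% at resolution 0.5, 28.8% with members kept for clustering, 73.8% without doublets and 29.3% when clustered again without them. The median reporter-positive level as a percent of megakaryocyte-like cells was 33.0%, and 69.9%, 35.3% (resolution 2), 56.7% and 60.4% (clustered again), with 30.3% to 34.3% when each library was left out. Clustered again after the cell filter, no cluster was named megakaryocyte-like. With 500, 2000 and all UMIs per cell, the median share of reporter-positive cells with a member was 1.45%, 4.44% and 12.4%, and the mean number of members 0.164, 0.531 and 1.15. No paired analysis was possible because the labels carry no replicate numbers. At this depth Gp5 (7 UMIs) and Ppbp (19 UMIs) in reporter-positive cells allow no finer statement.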
